A study of Canis lupus familiaris with 12 samples.

Results

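Glucocorticoid signalling genes were examined in hippocampus of beagle dogs after a sham operation or after rapid atrial pacing, in which the atria are driven electrically at a high rate to bring on atrial fibrillation. The set was fixed by name as 10 genes: the receptors NR3C1 and NR3C2, the receptor-regulating co-chaperone FKBP5, the response genes SGK1, TSC22D3, ZBTB16, KLF9 and DDIT4, the enzyme gene HSD11B1 and the peptide receptor gene CRHR1. Of these, 9 were found by symbol among the 31158 gene models of the hippocampus table, and CRHR1 was not analysed here. All 9 passed the filter on low values, a mean of at least 0.5 RPKM, together with 16090 genes in all.

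The hippocampal comparison had 3 libraries from dogs paced for 2 weeks and 3 from sham-operated dogs. The question behind the design is a link between atrial fibrillation and cognition. Both arms were beagles, and no drug, allele or transgene is given for either. The sources used here do not state ages, cortisol levels or the time of tissue collection. Nothing states that each library came from its own dog, so a p-value here measures the spread between these libraries, which may be technical in part. A companion set of 6 libraries of vesicle microRNA from epicardial fat holds another class of RNA and was not used.

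Glucocorticoids are adrenal steroids that cross into the brain and bind a pair of nuclear receptors. The mineralocorticoid receptor, from NR3C2, binds them with high affinity and is abundant in hippocampal neurons. The glucocorticoid receptor, from NR3C1, has lower affinity, is engaged mainly when hormone rises at the daily peak or in stress, and activates genes such as FKBP5, SGK1 and TSC22D3 from glucocorticoid response elements. In the hippocampus this system is known for the control of stress hormone release and for effects on memory.

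Values are RPKM, reads scaled both to exon length in kilobases and to the gene-assigned total of each library. Assigned reads per library ranged from 35003483 to 43425895 in pacing and from 36573169 to 51789497 in sham. Excitatory neuron markers were present in every library, with the vesicular glutamate transporter SLC17A7 at 48.6 to 95.3 RPKM and the pyramidal cell gene NEUROD6 at 188 to 345. Sham replicate 2 stood apart from the other libraries. In a principal component analysis of all tested genes, the leading axis carried 45.3% of the variance and placed this library at 39.6, where sham replicate 3 lay at 8.61 and the other 4 libraries between -13.5 and -9.62. For the 9 genes, and for some related genes, the difference is given with and without it.

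FKBP5 was by far the most abundant gene of the set, and KLF9 the least. Over the 6 libraries FKBP5 averaged 78.9 RPKM and lay above 94.7% of tested genes. SGK1 followed at 25.5, TSC22D3 at 15.1, HSD11B1 at 14.99, ZBTB16 at 13.4, DDIT4 at 7.14, NR3C2 at 5.82, NR3C1 at 4.75 and KLF9 at 1.03 RPKM. FKBP5 stood 3.10-fold above SGK1 by the mean, with ranges that did not overlap. ZBTB16 and DDIT4 were also apart in every library (1.87-fold), as were NR3C1 and KLF9 (4.63-fold). The neighbours TSC22D3, HSD11B1 and ZBTB16 could not be ordered beyond their spread: TSC22D3 lay above HSD11B1 in 2 of 6 libraries, and HSD11B1 above ZBTB16 in 4 of 6.

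**Figure D1:**
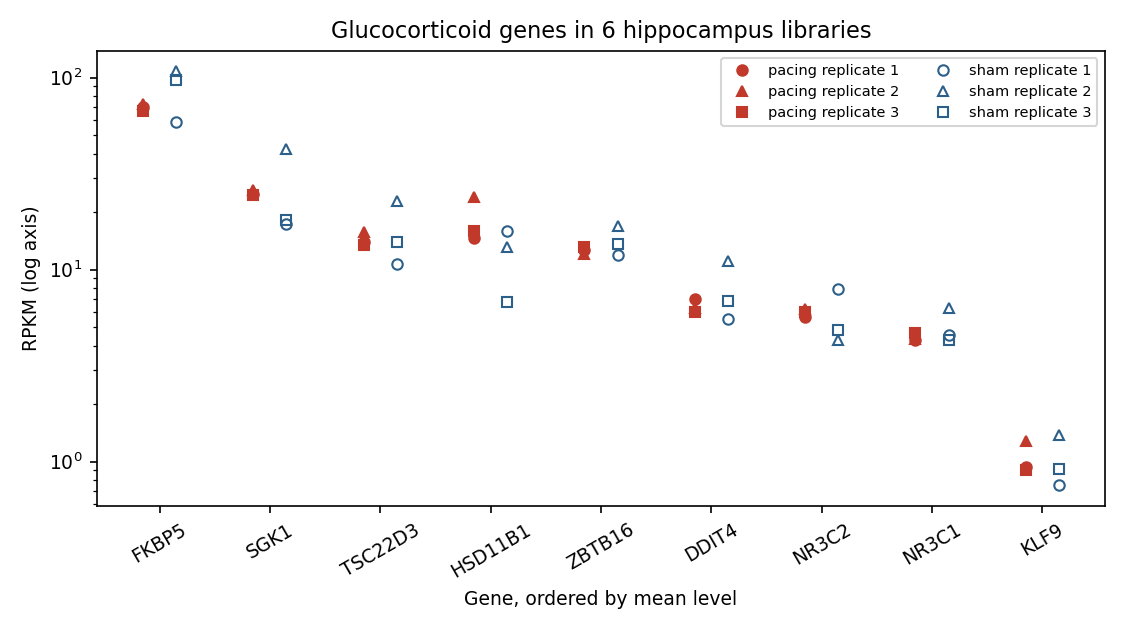
Level of each of the 9 genes in every library, in RPKM on a log axis, with genes ordered by mean level; filled red symbols are pacing and open blue symbols are sham libraries. FKBP5 (58.5 to 108 RPKM) lies above all others, and for most genes the sham symbols spread more widely than the pacing symbols.

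No gene of the set passed the test between pacing and sham. By limma-trend on log2(RPKM + 1), 0 of 9 passed an adjusted p of 0.05 and 0 of 9 had an unadjusted p under 0.05, and limma-voom on recovered reads also gave 0. The background was 0.0249% of 16090 tested genes for the adjusted p, which is 4 genes, and 9.15% for the unadjusted p. The arms overlapped for all 9 genes, whereas 16.2% of tested genes had arms that did not overlap. By the fitted difference 5 of the 9 were lower in pacing, against 58.9% of all tested genes, and the median difference was -0.068 for the 9 and -0.037 for all tested genes on the log2 scale. Without sham replicate 2, 3 of the 9 were lower in pacing, against 57.6% of tested genes. The intervals below give what size of difference these libraries leave possible.

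The 9 genes differed more among the 3 sham libraries than among the pacing libraries, and this rested in part on sham replicate 2. The SD of log2(RPKM + 1) was larger in sham than in pacing for 9 of 9 genes, as it was for 78.8% of all tested genes. Its median was 0.451 in sham and 0.064 in pacing for the 9 genes, beside 0.187 and 0.091 for all tested genes. With sham replicate 2 left out the SD was larger in sham for 6 of 9 genes, close to the 61.0% of all tested genes. For 7 genes, NR3C2, FKBP5, SGK1, TSC22D3, ZBTB16, KLF9 and DDIT4, all 3 pacing libraries lay inside the range of the sham libraries, a pattern found in 35.9% of tested genes.

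One order of libraries recurred among the response genes. FKBP5, SGK1, TSC22D3, ZBTB16, KLF9 and DDIT4 were each highest in sham replicate 2 and lowest in sham replicate 1, an arrangement that 9.46% of tested genes had. NR3C1 was also highest in sham replicate 2, as were 33.0% of tested genes. NR3C2 had the opposite arrangement, highest in sham replicate 1 and lowest in sham replicate 2, as did 6.47% of tested genes. HSD11B1 followed neither order. The 6 response genes share these libraries and their dissection, so they are not separate observations of a condition.

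**Figure D2:**
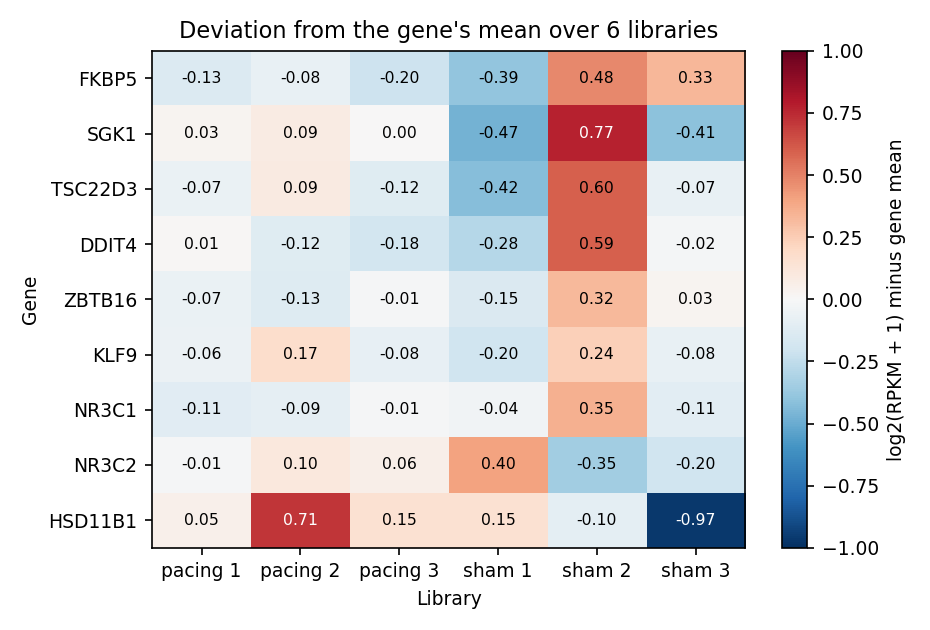
Deviation of each gene from its own mean over the 6 libraries, on the log2(RPKM + 1) scale; red is above and blue below the mean. Sham replicate 2 is red for 7 genes, up to 0.77 for SGK1, and sham replicate 1 is blue for the 6 response genes, while NR3C2 shows the reverse.

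NR3C1, the glucocorticoid receptor gene, stood at 4.29, 4.37 and 4.67 RPKM in pacing replicates 1 to 3 and at 4.56, 6.29 and 4.31 RPKM in sham replicates 1 to 3. A single library, sham replicate 2, was high, and the other 5 lay close together. The log2 difference, pacing minus sham, was -0.14 (95% interval -0.46 to 0.19, adjusted p = 0.767), and without sham replicate 2 it was 0.0029 (-0.22 to 0.22). The gene lies on the minus strand of chromosome 2 from 38124568 to 38242510. Coordinates are as the deposited table gives them, on the dog sequences of assembly CanFam3.1.

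NR3C2, the mineralocorticoid receptor gene, stood at 5.66, 6.23 and 6.01 RPKM in pacing and at 7.89, 4.27 and 4.85 RPKM in sham. Its pacing values fell between the highest sham value and the other two. The log2 difference was 0.10 (-0.35 to 0.55, adjusted p = 0.891), and without sham replicate 2 it was -0.051. Without sham replicate 1 the difference was 0.33 (0.08 to 0.58), which did not pass (adjusted p = 0.176). NR3C2 lies on the minus strand of chromosome 15 from 46390030 to 46718000.

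NR3C2 exceeded NR3C1 per unit length in every library but one. The ratio of NR3C2 to NR3C1 was 1.32, 1.43 and 1.29 in pacing and 1.73, 0.679 and 1.13 in sham, so that only in sham replicate 2 was NR3C1 the higher of the pair. The log2 ratio was 0.425 ± 0.077 over the pacing libraries and 0.135 ± 0.675 over the sham libraries (SD, n = 3 per arm). A two-sided exact permutation test of the log2 ratio gave p = 0.7 for a difference of 0.29. The smallest p that 3 against 3 allows is 0.1, so this test could not pass 0.05. Without sham replicate 2 the difference was -0.057, and without sham replicate 1 it was 0.62. PGR, the progesterone receptor gene of the same family, had 2 reads in all 6 libraries together.

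**Figure D3:**
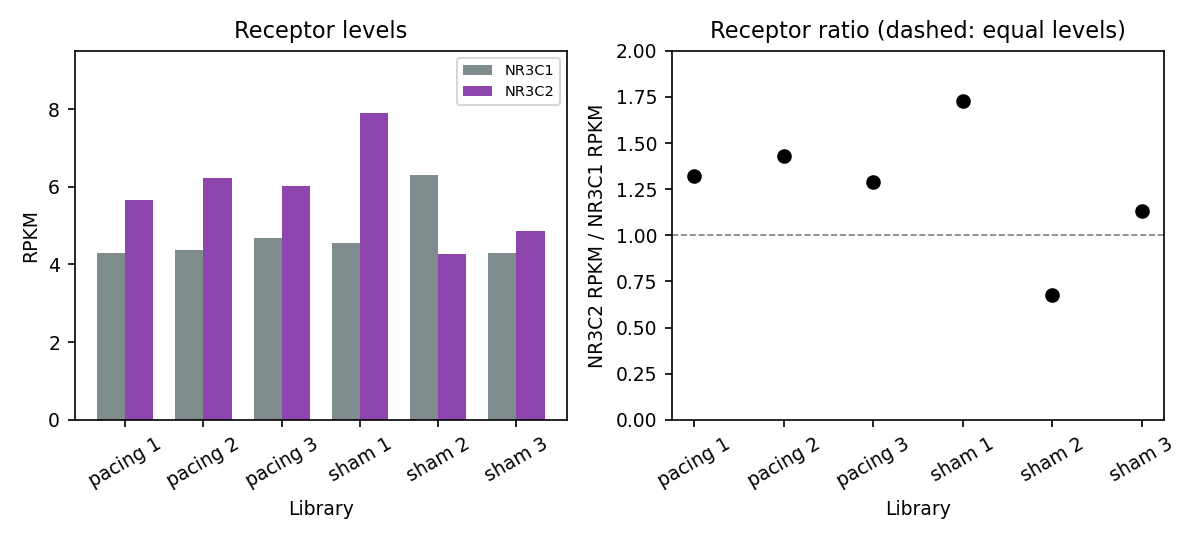
Left, NR3C1 and NR3C2 in RPKM in each library; right, their ratio, with the dashed line at equal levels. The ratio is 1.29 to 1.43 in the pacing libraries and runs from 0.679 to 1.73 in the sham libraries.

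FKBP5 encodes an immunophilin co-chaperone that lowers the hormone affinity of the glucocorticoid receptor, and the receptor in turn induces it. It stood at 70.2, 73.0 and 66.7 RPKM in pacing and at 58.5, 108 and 97.1 RPKM in sham. Sham replicates 2 and 3 were above every pacing library and sham replicate 1 below every one. The log2 difference was -0.28 (-0.79 to 0.23, adjusted p = 0.700). Without sham replicate 1 FKBP5 was lower in pacing by 0.54 on the log2 scale (interval -0.78 to -0.30), which did not pass (adjusted p = 0.081). In that setting differences grew for many genes. By limma-trend 3111 of 16083 tested genes had an unadjusted p under 0.05, beside 1473 of 16090 with all libraries. Without sham replicate 2 the FKBP5 difference was -0.11 (adjusted p = 0.852). FKBP5 lies on the minus strand of chromosome 12 from 4724668 to 4833691, and 208 of its 5216 exon bases are shared with LOC111098204 on the opposite strand. The strand setting of the counting is not stated, so reads in that stretch cannot be assigned. The read numbers, 12185 to 29129 per library, leave counting error small beside the spread of the libraries.

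SGK1, a serum- and glucocorticoid-regulated kinase that acts on ion channels and transporters, had the tightest pacing values of the set. It stood at 24.9, 25.9 and 24.4 RPKM in pacing and at 17.3, 42.3 and 18.04 RPKM in sham. The highest value was 1.06-fold the lowest in pacing and 2.44-fold in sham. Sham replicate 2 lay above and the other sham libraries below every pacing library. The difference over all 6 libraries was 0.08 (-0.65 to 0.80, adjusted p = 0.951). Without sham replicate 2 the arms were apart, with SGK1 higher in pacing by 0.48 (0.30 to 0.66), which did not pass (adjusted p = 0.164; without that library 4832 of 16090 tested genes had arms apart), and without sham replicate 1 the difference was -0.14. SGK1 lies on the minus strand of chromosome 1 from 27086431 to 27196601. Its paralog SGK3 averaged 3.99 RPKM and was also highest in sham replicate 2 (5.94) and lowest in sham replicate 1 (2.97). SGK2 averaged 3.96 RPKM and was low in sham replicate 3 (1.42).

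TSC22D3 encodes GILZ, a leucine zipper protein that restrains inflammatory transcription factors downstream of the glucocorticoid receptor. It stood at 14.0, 15.7 and 13.4 RPKM in pacing and at 10.7, 22.8 and 13.9 RPKM in sham. Sham replicate 3 lay among the pacing libraries, and the other sham libraries lay on either side of them. The difference was -0.07 (-0.63 to 0.50, adjusted p = 0.942), and without sham replicate 2 it was 0.21 (adjusted p = 0.552). TSC22D3 lies on the minus strand of chromosome X from 81235489 to 81298290. Of its paralogs, TSC22D4 was also highest in sham replicate 2 (31.7 RPKM, beside at most 17.2 elsewhere), whereas TSC22D1 ranged only from 18.6 to 23.6 RPKM. TSC22D2 was highest in sham replicate 3 (1.53 RPKM).

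ZBTB16 encodes PLZF, a zinc finger transcription repressor that glucocorticoids induce in many cell types. It stood at 12.7, 12.1 and 13.2 RPKM in pacing and at 11.9, 16.9 and 13.6 RPKM in sham. It had the narrowest range of the set, with the highest library 1.42-fold the lowest. The difference was -0.14 (-0.45 to 0.18, adjusted p = 0.760), and without sham replicate 2 it was -0.0088. ZBTB16 lies on the minus strand of chromosome 5 from 19082594 to 19284360.

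KLF9, a zinc finger factor induced by glucocorticoid and thyroid hormone in neurons, was the least abundant member. It stood at 0.939, 1.27 and 0.905 RPKM in pacing and at 0.754, 1.38 and 0.910 RPKM in sham, from 254 to 571 reads per library. One library of each arm, pacing replicate 2 and sham replicate 2, stood above the other 4. The difference was 0.03 (-0.31 to 0.36, adjusted p = 0.962), and without sham replicate 2 it was 0.15. On the log2(RPKM + 1) scale the change of so low a gene is understated, and with a pseudocount of 0.1 the difference was 0.058 (-0.55 to 0.66). KLF9 lies on the plus strand of chromosome 1 from 87109310 to 87164636.

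DDIT4 encodes REDD1, an inhibitor of mTORC1 signalling that glucocorticoids, low oxygen and energy stress induce. It stood at 7.04, 6.34 and 6.01 RPKM in pacing and at 5.55, 11.1 and 6.87 RPKM in sham. Sham replicate 2 was 1.74-fold the median of the other 5 libraries, which lay between 5.55 and 7.04. The difference was -0.20 (-0.70 to 0.31, adjusted p = 0.785), and without sham replicate 2 it was 0.053. DDIT4 lies on the plus strand of chromosome 4 from 22916718 to 22918893. Its paralog DDIT4L was below the filter, at 0.227 to 0.600 RPKM.

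HSD11B1 encodes the reductase that regenerates active glucocorticoid from its inert form inside cells, and it showed the largest difference of the set. It stood at 14.7, 23.8 and 15.8 RPKM in pacing and at 15.8, 13.1 and 6.75 RPKM in sham. Pacing replicate 2 was high and sham replicate 3 low, and the other 4 libraries lay between 13.1 and 15.8. The difference was 0.61 (-0.10 to 1.32, adjusted p = 0.593). It was 0.41 without pacing replicate 2, 0.28 without sham replicate 3 and 0.84 without sham replicate 1 (adjusted p = 0.975, 0.738 and 0.213), positive in each. Without sham replicate 1 the interval of HSD11B1 was 0.10 to 1.57, in the setting where differences grew for many genes. Without sham replicate 2 it was 0.71 (adjusted p = 0.482). HSD11B1 lies on the plus strand of chromosome 7 from 8344380 to 8409901.

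Other steroid-handling genes gave context for HSD11B1. H6PD, which supplies the cofactor for its reductase activity, ranged from 1.11 to 1.80 RPKM. HSD11B2, the enzyme that inactivates glucocorticoid, had 18 reads in all 6 libraries together, and the related HSD11B1L ranged from 3.88 to 5.78 RPKM. Excitatory neuron markers summed to 548.5, 741 and 531 RPKM in pacing and to 627, 430 and 472 in sham, with 6 of 6 markers higher in pacing by the fit and none at 0 in any library. Pacing replicate 2 thus had the highest level of both these markers and HSD11B1, while sham replicate 3, lowest in HSD11B1, was second lowest in the markers. In bulk tissue fewer cells of a type and less RNA per cell cannot be told apart, and the part of cell make-up in the HSD11B1 values was not tested.

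**Figure D4:**
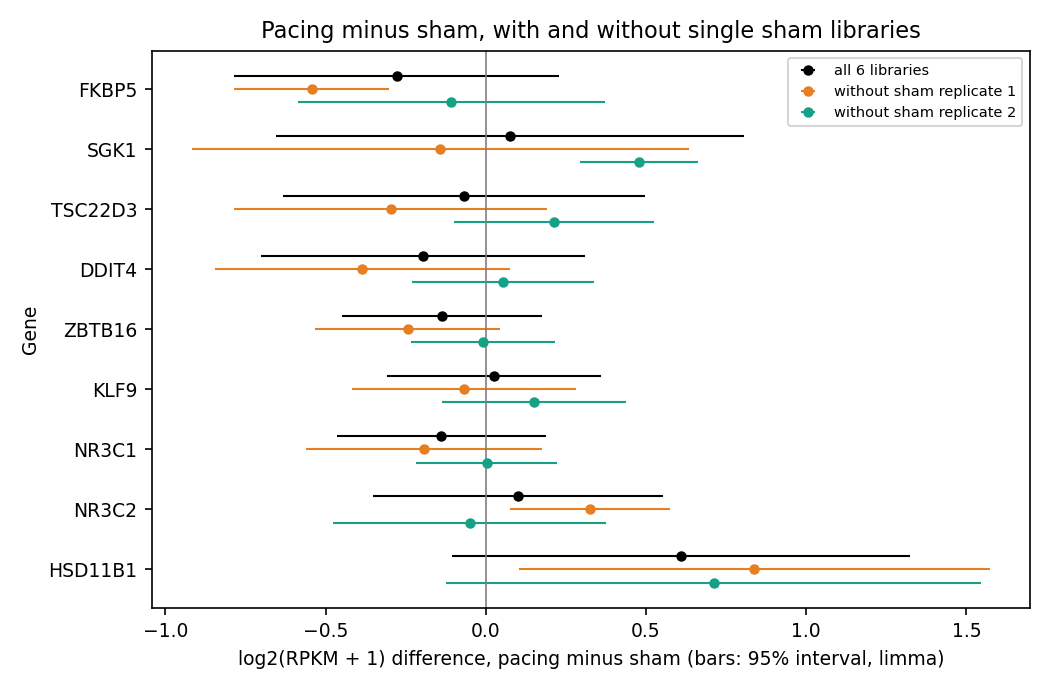
Difference of each gene, pacing minus sham, on the log2(RPKM + 1) scale, with 95% limma intervals, for all 6 libraries (black), without sham replicate 1 (orange) and without sham replicate 2 (green). With all 6 libraries every interval spans 0, and the estimates of SGK1 (0.08, -0.14 and 0.48) and NR3C2 (0.10, 0.33 and -0.051) move across 0 with the sham library left out.

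Other genes that glucocorticoids are known to induce were mostly highest in the same library. Of 32 listed, 31 were in the table and 27 were tested. By the fit 8 were higher and 19 lower in pacing (median log2 difference -0.0878, beside -0.037 for all tested genes), and 0 passed by limma-trend, with 2 at an unadjusted p under 0.05, a smaller share than the 9.15% of all tested genes. Sham replicate 2 was the highest of the 6 libraries for 22 of the 27 genes, beside 33.0% of all tested genes, and its median deviation from the gene mean was 0.400 on the log2 scale, beside 0.035 over all tested genes. Without sham replicate 2, 17 of 26 tested genes were higher in pacing and 0 passed.

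PDK4, a brake on pyruvate oxidation and a direct receptor target, stood at 59.9 RPKM in sham replicate 2 and at 15.3 to 24.0 RPKM in the other 5 libraries. TXNIP, an inhibitor of glucose uptake and of thioredoxin, stood at 38.4 against 9.67 to 12.4 RPKM. GLUL, the astrocyte enzyme glutamine synthetase, stood at 326 against 125 to 207 RPKM, and NFKBIA, the NF-kB inhibitor, at 54.6 against 32.2 to 39.2. These 4 were chosen after their values were seen. In each of them sham replicate 2 was the highest library and sham replicate 1 the lowest, the order seen for FKBP5 and SGK1. That order held for 9.46% of all tested genes. As these 4 were picked by value, their sharing it does not show how common it was in the list. The remaining tested genes of the list with that order were DUSP1, FOXO3, KLF15, NDRG2, TIPARP, GADD45B and MT2A. Others of the list, such as PER1, CEBPD, ERRFI1, ANXA1, RHOB, BCL6 and TNFAIP3, were highest in sham replicate 2 but lowest in a library other than sham replicate 1.

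The smallest p-values of that list belonged to genes with another pattern. MFSD2A, a lipid transporter of brain endothelium, stood at 2.51, 2.38 and 2.20 RPKM in pacing and at 2.03, 1.81 and 1.56 in sham (log2 difference 0.27, adjusted p = 0.529). SLC2A1, the glucose transporter of the blood-brain barrier, stood at 20, 19.8 and 18.4 against 14.5, 18.2 and 10.6 RPKM (0.43, adjusted p = 0.540). For both genes the arms did not overlap, and neither passed. They were the only such genes of the list, 2 of 27 beside 16.2% of all tested genes. BCL6, a transcription repressor, had the next smallest p (2.84, 2.36 and 2.97 RPKM in pacing, 2.51, 5.15 and 3.94 RPKM in sham; log2 difference -0.35, adjusted p = 0.626), and its difference was -0.16 without sham replicate 2.

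**Figure D5:**
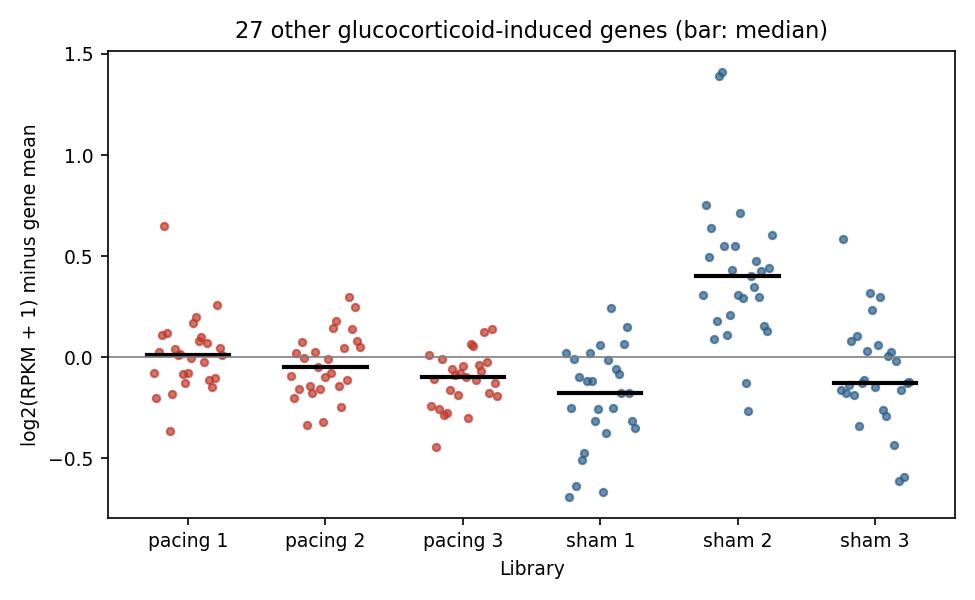
Deviation of 27 other glucocorticoid-induced genes from their own means in each library, on the log2(RPKM + 1) scale; points are genes and black bars are medians. The median is 0.400 in sham replicate 2 and lies between -0.178 and 0.012 in the other 5 libraries.

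Markers of several cell types and states were also at an extreme in sham replicate 2, some high and some low. Oligodendrocyte markers were highest there for 6 of 6 genes, with a summed level of 2705 RPKM, against 1480 to 1844 in pacing and 1086 to 1517 in the other sham libraries. Immediate early genes, which respond to neuronal activity and tissue handling, were highest there for 7 of 7 tested genes. Sham replicate 2 was the highest library for 33.0% of all tested genes. The immediate early list summed to 46.9 RPKM there, against 10.4 to 11.4 in pacing and 12.5 and 20.3 in the other sham libraries. EGR2 of that list, below the filter, was instead highest in sham replicate 1 (0.658 RPKM, beside 0.596 in sham replicate 2). By the fit 7 of 7 were lower in pacing and 0 were higher without sham replicate 2, with 0 passing by limma-trend. Astrocyte markers summed to 2390 RPKM in sham replicate 2, against 1526 to 1757 in pacing and 1377 and 1391 in the other sham libraries. Of these markers 3 of 5 were highest in sham replicate 2. That sum followed GFAP, at 1530 RPKM there and 561 to 901 elsewhere, while SLC1A3 was lower there (438 RPKM) than in every pacing library (477 to 527). Of these 3 lists only NPAS4, an immediate early gene, was at 0 in any library, and that in pacing replicate 1 alone.

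Markers of tissue borders, vessels and other neurons varied too. The choroid plexus list summed to 455 RPKM in sham replicate 2, 45.7 in sham replicate 3, 5.83 in sham replicate 1 and 76.2 to 159 in pacing. TTR alone gave 449 RPKM in sham replicate 2 and 2.46 RPKM in sham replicate 1, and it was the only 1 of 3 tested markers highest there, with KL lowest there (1.83 RPKM) and CLIC6 highest in pacing replicate 2. FOLR1, KCNJ13 and OTX2 of that list, below the filter, were also highest in sham replicate 2 (1.53, 0.338 and 0.814 RPKM). Elsewhere they reached at most 0.659, 0.0984 and 0.199 RPKM, and FOLR1 was at 0 in sham replicate 1. Blood markers summed to 10.9 RPKM in sham replicate 2, to 5.13 and 5.53 in the other sham libraries and to 6.16 to 7.66 in pacing. The red cell gene HBM was at 0 in every library but sham replicate 2, but it had only 2 reads in all and was not tested. CD3E of that list, also below the filter, went the other way. It was lowest in sham replicate 2 (0.0306 RPKM) and stood at 0.183 to 0.363 RPKM in pacing. HBB and HBA1 were not found by symbol. Endothelial markers summed to 27.95 RPKM in sham replicate 2, to 22.5 and 21.4 in the other sham libraries and to 25.5 to 26.4 in pacing. Only 3 of 6 of them were highest there, and PECAM1 was lower there (6.29 RPKM) than in pacing (7.11 to 7.73). Inhibitory neuron markers were lowest there for 4 of 6 genes, summing to 102 RPKM against 115 to 151 in pacing and 155 and 175.5 in the other sham libraries. Ependymal markers summed to 15.75 RPKM there, to 34.5 and 30.6 in the other sham libraries and to 12.95 to 23.3 in pacing. That sum was mostly RSPH1, at 13.2 RPKM in sham replicate 2. CFAP43 and DNAH9 were lowest in that library, but FOXJ1 was highest there (1.05 RPKM, beside 0.202 to 0.783 elsewhere). The part of these cell types and states in the order of the response genes was not tested.

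No gene of the receptor complex passed. Of 15 tested chaperones and coregulators 4 were higher and 11 lower by the fit, beside 58.9% of all tested genes lower. The median log2 difference was -0.0823, beside -0.037 for all tested genes. Of the 15 genes 0 passed by limma-trend, with 2 at an unadjusted p under 0.05, beside 9.15% of all tested genes. EP300, an acetyltransferase coactivator, stood at 8.01, 8.38 and 6.77 RPKM in pacing and at 8.76, 12.8 and 10.5 RPKM in sham (log2 difference -0.41, adjusted p = 0.487, and -0.29 without sham replicate 2). STIP1, which links HSP70 to HSP90 during receptor folding, stood at 60.2, 49.6 and 58.3 against 60.8, 70.2 and 81.5 RPKM (-0.33, adjusted p = 0.540). FKBP4, the immunophilin that competes with FKBP5 for the receptor complex, stood at 133, 131 and 128 against 139, 139 and 171 RPKM (-0.19, adjusted p = 0.629). The arms did not overlap for these 3 genes, which is 3 of 15 beside 16.2% of all tested genes. FKBP4 was higher than FKBP5 in every library, although sham replicate 2, where FKBP5 peaked, was not where FKBP4 was highest.

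Hormone-supply and peptide genes of the stress axis showed no difference that passed. Of 6 tested genes of steroid supply and transport 3 were higher and 3 lower (median -0.0022). Of these 0 passed and 1 had an unadjusted p under 0.05, beside 9.15% of all tested genes. That gene was ABCB1, the efflux pump that limits entry of some steroids into the brain, at 6.09, 5.76 and 5.85 RPKM in pacing and 5.25, 4.10 and 3.26 RPKM in sham (log2 difference 0.42, adjusted p = 0.476). Its arms did not overlap, which held for 1 of these 6 genes and for 16.2% of all tested genes. POR, the reductase that serves microsomal P450 enzymes, had the next smallest p (-0.16, adjusted p = 0.738), then SRD5A1, a steroid 5-alpha reductase gene (-0.13, adjusted p = 0.792). SRD5A1 was highest in sham replicate 2 (3.24 RPKM), and without that library its difference was -0.0017.

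Of 11 genes of the CRH system 3 were abundant enough to be tested, 1 higher and 2 lower in pacing (median -0.129). Of these 0 passed and 0 had an unadjusted p under 0.05, beside 9.15% of all tested genes. CRHBP, which encodes the binding protein that sequesters the peptide, stood at 4.59, 6.63 and 5.75 RPKM in pacing and at 4.33, 11.3 and 6.29 RPKM in sham (-0.24, adjusted p = 0.807), again highest in sham replicate 2 and lowest in sham replicate 1. The CRHBP difference turned to 0.084 without sham replicate 2, and 2 of the 3 genes were higher in pacing. CRH, the stress peptide itself, stood at 1.78, 1.71 and 2.47 against 2.97, 1.91 and 1.96 RPKM (-0.13, adjusted p = 0.818). POMC, the precursor of corticotropin, was near the filter at 0.876, 0.542 and 0.407 RPKM in pacing and 0.159, 0.612 and 0.867 RPKM in sham (0.07, adjusted p = 0.921). CRHR2, the other receptor of the family, was below the filter at 0.0932 to 0.522 RPKM, and UCN had 2 reads in all 6 libraries together.

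Of 11 tested paralogs of the 9 genes 5 were higher and 6 lower in pacing (median -0.0132). Of these 0 passed and 1 had an unadjusted p under 0.05, beside 9.15% of all tested genes. That gene was FKBP1A, the small immunophilin that binds calcium release channels, at 41.9, 45.4 and 39 RPKM in pacing and 39.6, 31.8 and 31.2 RPKM in sham (0.30, adjusted p = 0.539). FKBP4 and ZBTB32, a zinc finger relative of ZBTB16 (-0.15, adjusted p = 0.638), had the next smallest p. Sham replicate 2 was the highest library for 2 of the 11 paralogs, SGK3 and TSC22D4, beside 33.0% of all tested genes.

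The genes nearest in profile were found among 11621 named genes with a mean of at least 1 RPKM, by the root mean square (RMS) difference of mean-centred log2(RPKM + 1) over the 6 libraries. Nearest to FKBP5 were DPF3 (0.0419), KLHL24 (0.046) and P4HA1 (0.0522), beside an RMS deviation of 0.305 of FKBP5 from its own mean. Nearest to SGK1 were AIF1L (0.0655), FEN1 (0.0659) and ARRDC2 (0.0838), beside 0.407. ARRDC2, an arrestin-domain gene, stood at 16.2, 17.8 and 15.7 RPKM in pacing and 12.8, 31.6 and 11.7 RPKM in sham, the low, high, low order of SGK1. These distances are a description over 6 libraries and carry no test.

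Nearest to NR3C2 were RYR2 (0.0345), POLR3F (0.0468) and PREP (0.0476), beside 0.238. RYR2, the calcium release channel of heart and neurons, stood at 20, 22 and 20.6 RPKM in pacing and 25.6, 15.4 and 17.9 RPKM in sham. It was highest in sham replicate 1 and lowest in sham replicate 2, as NR3C2 was. Nearest to HSD11B1 were POU3F1 (0.106), CAMK1D (0.119) and HPCA (0.121), beside 0.5. HPCA, the neuronal calcium sensor hippocalcin, stood at 450, 739 and 423 RPKM in pacing and 562, 425 and 220 RPKM in sham, with pacing replicate 2 highest and sham replicate 3 lowest, as for HSD11B1.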

How the data were processed

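Hippocampal mRNA libraries from the 2 arms, 3 per arm, were analysed. Trimmomatic 0.36, STAR 2.5.3a and featureCounts were used, per the submitters' processing notes, and the library kit was stranded per the labels' protocols. The sources used here do not state the annotation release, the strand setting or how molecular identifiers were handled. The deposited values are RPKM, which the authors scaled to summed exon length and to reads assigned to genes. RPKM times the deposited length column gave whole reads for 100% of values in each library (tolerance 0.02 reads), so depth is known. All columns of the table were used.

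Genes with a mean of at least 0.5 RPKM were tested in R 4.3.3 with limma 3.58.1 (limma-trend on log2(RPKM + 1), pseudocount 1), with Benjamini-Hochberg adjustment over all 16090 tested genes at 0.05. Fold changes on this scale understate the change of low genes. Differences are pacing minus sham, with 95% intervals. The receptor ratio was tested by exact permutation over samples. Alternatives changed the pseudocount, filter, scaling, weights and test (limma-voom on recovered reads), fitted replicate number as a blocking factor, or dropped single libraries in turn. Counts of members without sham replicate 2 were added after seeing the data. The fit was tested on simulated data. Other values came from Python 3.11.15 with pandas 2.3.3.

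All members are named. From each list of related genes the up to 3 tested genes of smallest p are named, with paralogs by level and exceptions marked. Members and lists were chosen with earlier results of these data known. Replicate numbers did not pair the libraries. All 9 symbols were also found in RefSeq's gene list for another dog assembly. No nucleotide or protein sequence was used here.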

Additional observations from a re-analysis of the deposited data

How the results depend on the processing

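In every alternative run, 0 members passed. Of 134 alternative values of single members 124 kept their direction, and the smallest adjusted p was 0.081, for FKBP5 without sham replicate 1. With array weights TSC22D3 stood at 0.026 instead of -0.068, and the cause was not tested. HSD11B1 stood at 0.82 with array weights (0.13 to 1.51), which did not pass by limma (adjusted p = 0.300). Leaving out 1 library gave ranges of -0.23 to 0.0029 for NR3C1, -0.051 to 0.33 for NR3C2, -0.14 to 0.48 for SGK1, -0.30 to 0.21 for TSC22D3, -0.067 to 0.15 for KLF9 and -0.39 to 0.053 for DDIT4, each crossing 0. It gave -0.54 to -0.11 for FKBP5, -0.24 to -0.0088 for ZBTB16 and 0.28 to 0.84 for HSD11B1, which kept their direction. The difference of the log2 receptor ratio ranged from -0.057 to 0.62. KLF9 could not be tested at a mean of at least 2 RPKM.

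Over all genes 4 passed, 7 with no filter, 23 with array weights and 3 to 95 with 1 library left out (95 without sham replicate 1, 9 without sham replicate 2). With the replicate block 7 genes and 0 members passed, HSD11B1 had an unadjusted p of 0.0418 by limma (adjusted p = 0.616), and the receptor ratio difference was 0.29 (exact sign-flip p = 0.75, where 0.25 is the smallest that 3 pairs allow, so this test could not pass). Same-numbered libraries did not deviate together (r across genes of -0.111, 0.064 and -0.011 for numbers 1 to 3), and not every library correlated best with its own number. Each member had at least 254 reads in each library.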
